A study of Saccharomyces cerevisiae BY4741 with 238 samples.

Results

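Yeast growing in myriocin was set against yeast growing in cycloheximide at about the same growth rate. The comparison held 21 of the 238 cultures of the series, 11 with myriocin alone and 10 with cycloheximide alone. They were chosen by a relative growth, that is the growth rate divided by the rate without drug, of 0.35 to 0.66, whatever drug combination label the well carried, and wells with 2 drugs were not used. Every culture was 1 well of Saccharomyces cerevisiae BY4741 in YPD, a rich glucose medium, and BY4741 is a haploid laboratory strain of mating type MATa that carries mutations in the marker genes URA3, LEU2, HIS3 and MET17. The series measured messenger RNA near the 3' ends of transcripts in wells with no drug or with cycloheximide, lithium chloride, myriocin or rapamycin, alone and in pairs. Myriocin wells held 0.349 to 0.510 µg/ml of the drug and cycloheximide wells 0.0522 to 0.0764 µg/ml. No other agent was present, and 11 wells with no drug served as the reference.

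Myriocin inhibits serine palmitoyltransferase, the enzyme that joins serine to palmitoyl-CoA in the first step of sphingolipid synthesis. Sphingolipids are main lipids of the yeast plasma membrane, where the permeases for amino acids, phosphate and other nutrients sit. Cycloheximide binds the large ribosomal subunit and stalls translation elongation. Transcripts of ribosomes, permeases and biosynthetic enzymes are known to follow growth rate, which the choice of wells holds nearly equal.

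The match in growth was close, but other properties of the wells moved with the drug. Relative growth was 0.541 ± 0.0841 (SD, n = 11) in myriocin and 0.533 ± 0.0520 (SD, n = 10) in cycloheximide. The myriocin wells just outside the window had relative growth of 0.331 and 0.693, and the nearest cycloheximide well above it had 0.675. Final optical density (OD600) was 0.399 to 0.719 with a median of 0.479 in myriocin and 0.655 to 0.787 with a median of 0.686 in cycloheximide. With the log2 of OD600 as a covariate, 173 genes were called and 70 of the 74 higher and 91 of the 105 lower genes kept an adjusted p under 0.05. Estimated depth was 172720 to 674338 reads in myriocin and 87091 to 969924 in cycloheximide, where replicates 3 and 4 were shallow (104188 and 87091 reads). The drug combination label, which names the pair of drugs tested around a well (C, L, M and R for the 4 drugs), also differed. Myriocin wells carried CM (1), LM (7) or MR (3) and cycloheximide wells CL (2), CM (1) or CR (7), so that a single label, CM, held both drugs. The other labels were linked through wells with no drug, lithium chloride or rapamycin. Nothing in the labels says that wells came from separate starting cultures, so the p-values measure the spread between wells, which may be technical.

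**Figure D1:**
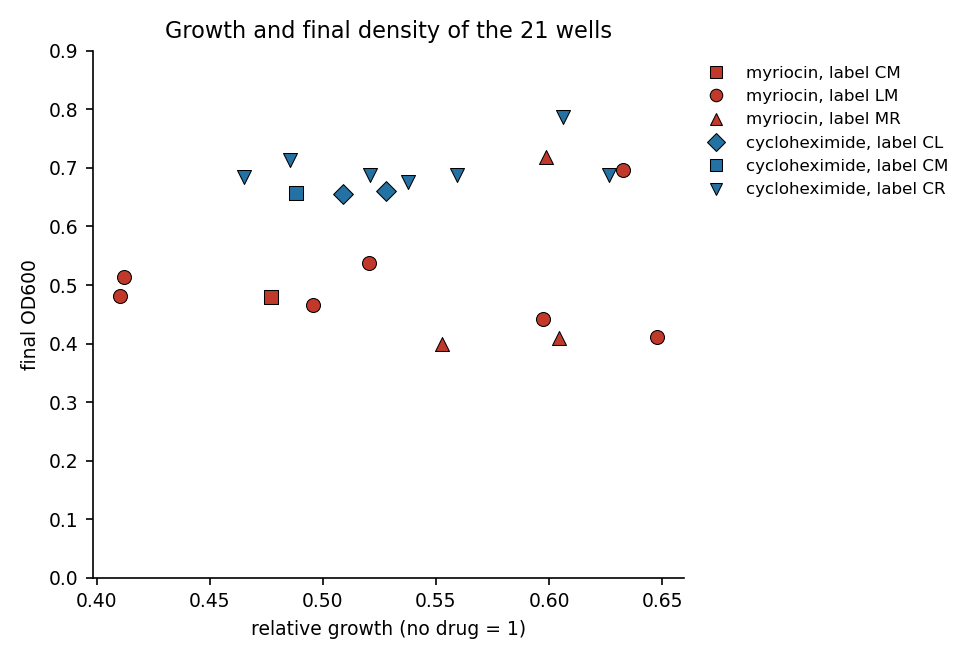
Final OD600 against relative growth for the 21 wells, with colour for the drug and shape for the drug combination label. The drugs share the range of relative growth, while cycloheximide wells sit at an OD600 of 0.655 to 0.787 and most myriocin wells lie below.

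1 cycloheximide library stood apart from its group. Replicate 1, the cycloheximide well of label CM, was nearer to the median of the myriocin wells than to that of the other cycloheximide wells in 78 of the 105 genes called lower and 45 of the 74 genes called higher in myriocin below, 123 in all. The other 9 cycloheximide wells were nearer to the myriocin median in 5 to 49 of these genes and the 11 myriocin wells in 134 to 169. Its relative growth (0.488), OD600 (0.658) and dose (0.0657 µg/ml) lay within the range of its group. Whether its label is right was not tested. Ranges for cycloheximide include this well unless stated. Results are given with all wells and, in many but not all cases where they change, without it. Most strain markers went with BY4741. The MATa genes MFA2 (medians of 81.9 in myriocin and 151 in cycloheximide) and STE2 (66.6 and 122) were present, while of the MATalpha genes STE3 had a mean of 1.26 over all libraries, MF(ALPHA)1 of 0.285 and MF(ALPHA)2 of 9.78, so that the last was not absent. LEU2, MET17 and URA3 had means of 0.0791. HIS3 did not go with them, with a mean of 16.5, and since the HIS3 mutation of this strain is known as an internal deletion, a tag from the 3' end of that gene checks nothing. A meiosis list of 19 genes summed to 88.5 to 158 in myriocin and 59.5 to 145 in cycloheximide.

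**Figure D2:**
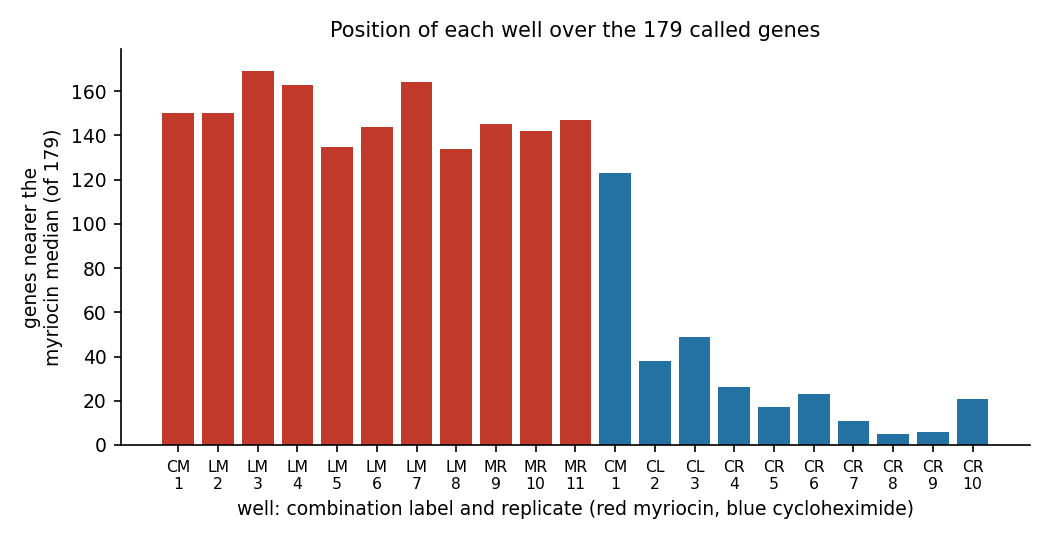
Number of called genes for which a well was nearer to the median of the other myriocin wells than to that of the other cycloheximide wells. Bars are single wells, and cycloheximide replicate 1 (label CM) stands at 123 beside 5 to 49 in the other 9 cycloheximide wells. The genes were called on these same wells, so heights are a description.

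Of 5015 genes tested by limma, 74 (1.48%) were higher and 105 (2.09%) were lower in myriocin than in cycloheximide, 3.57% together. Such genes, here named called, differed at least 1.5-fold and had a p under 0.05 after Benjamini-Hochberg adjustment over all tested genes. Called or not, 2674 of the 5015 genes had a positive and 2341 a negative difference, against which sign counts of lists are read. The genes that were lower included 9 of amino acid and peptide permeases, 8 of phosphate starvation, 7 of branched-chain amino acid synthesis and 5 of serine, glycine and one-carbon metabolism. The genes that were higher included mitochondrial ribosomal proteins, a few ribosome assembly factors and SLI1, whose product is known to detoxify myriocin. Values of the myriocin and cycloheximide wells did not overlap for 23 of the 5015 genes (0.459%), among them 7 of the 74 and 6 of the 105 genes called. Without cycloheximide replicate 1 the numbers were larger, with 350 genes called, 173 of them also called with all wells. Values of 171 genes (3.41%) then did not overlap between the drugs. List counts given below without this well are read against those 350 of 5015 genes, not against the 74 higher and 105 lower. Within label CM, which holds 1 well of each drug and allows no test, the difference had the same sign for 50 of the 74 and 80 of the 105 genes. Over all 5015 genes the median difference of this pair was -0.008. Fewer genes were called when only the lower (18) or only the higher (13) growth-reference set was used, in settings chosen after seeing the data. The sign was kept for each of the 74 higher genes in both sets. It was kept for 105 (lower set) and 104 (higher set) of the 105 lower genes. Both sets and the pair of label CM are parts of the wells on which these genes were called, so the signs are a description and no separate check.

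**Figure D3:**
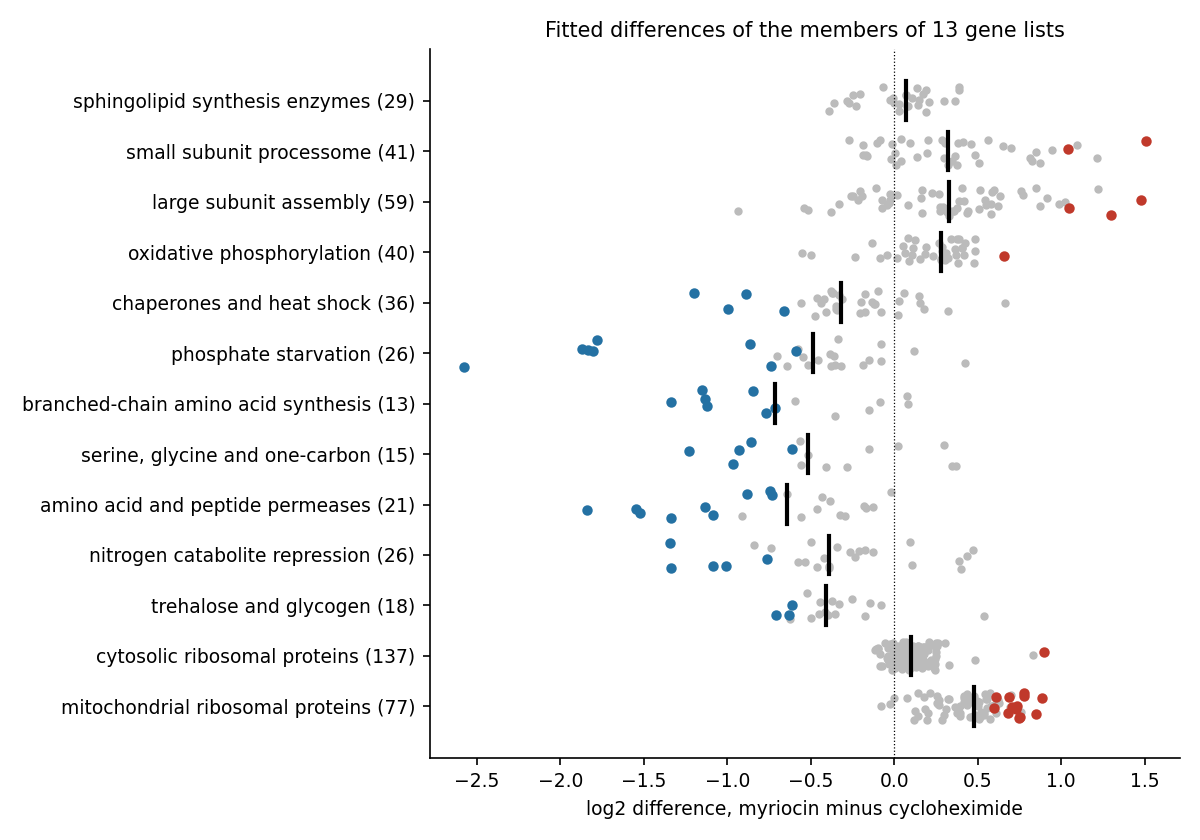
Fitted log2 difference, myriocin minus cycloheximide, of each tested member of 13 gene lists, with the number of members in brackets. Coloured points were called (blue lower, red higher in myriocin), grey points were not, and black bars mark list medians, which run from -0.71 for branched-chain amino acid synthesis to 0.47 for mitochondrial ribosomal proteins.

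Phosphate starvation genes were among those lower in myriocin. This group answers to the transcription factor Pho4 when phosphate is short and encodes transporters, secreted acid phosphatases and the machinery that stores phosphate as polyphosphate. Of 26 tested members 8 were lower and 0 were higher in myriocin (11 and 0 without cycloheximide replicate 1), and the median log2 difference was -0.49 beside 0.03 over all 5015 genes. PHO5, PHO11 and PHO12 encode the secreted acid phosphatases. PHO5 was 21.3 to 52.1 (median 34.9) in myriocin and 47.4 to 290.2 (median 233) in cycloheximide, with 115 to 238 in the drug-free wells. The lowest cycloheximide value, 47.4, was replicate 1, and the other 9 wells (145 to 290.2) lay above every myriocin well. The fitted log2 difference was -1.78 ± 0.29 (SE, adjusted p = 9.03e-05) and -2.11 without replicate 1. PHO11 and PHO12 are near-identical copies whose reads may not be told apart, and their log2 differences were -1.80 and -1.83.

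SPL2, which encodes a small protein that restrains low-affinity phosphate transport, was 16.9 to 35.1 (median 23.9) in myriocin and 28 to 165 (median 155) in cycloheximide. Again replicate 1 alone (28) fell into the myriocin range, and the fitted log2 difference was -1.87 ± 0.32 (adjusted p = 0.000138). PHO89, the sodium-phosphate cotransporter, showed the largest log2 difference of all called genes, -2.58 ± 0.59 (adjusted p = 0.00604). Its values were 2.08 to 19.4 in myriocin and 22.4 to 95.7 in cycloheximide and did not overlap. Drug-free wells were 58.6 to 107 in label LM and 4.09 to 37 in the other labels. The 7 myriocin wells of LM (2.08 to 19.4) lay below the drug-free LM wells. The 3 of MR (8.88 to 13.4) lay around the drug-free MR well (11.6). In the fit over all labels the larger difference of PHO89 was on the cycloheximide side. Its log2 differences from no drug were 1.66 ± 0.47 in cycloheximide and -0.92 ± 0.47 in myriocin. In PHO5 the larger difference lay on the myriocin side, with -1.85 ± 0.23 in myriocin and -0.07 ± 0.24 in cycloheximide, and SPL2 gave -2.13 ± 0.26 and -0.25 ± 0.26. These 2 contrasts, here and below, share the drug-free wells, whose relative growth was 0.991 to 1.12. Growth is therefore not matched in them. A shift common to slow growth cannot be told apart from the part of each drug. The vacuolar phosphate transporter gene PHO91 (-0.74), the polyphosphate polymerase gene VTC4 (-0.59) and YDR089W (-0.87), without overlap, were also lower. The high-affinity transporter gene PHO84 was not called, with a log2 difference of -0.64.

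Of the 8 called phosphate genes, 6 hold the hexamer CACGTG in the 300 bases before the start codon (RefSeq sequence, build R64, either strand), beside 3.57% of all 6001 such windows. CACGTG is the core site of Pho4 and equally of Cbf1, so the letters do not tell the factors apart. A site from each is shown with its surroundings, that hexamer in capitals, to let the flanks be compared. The VTC4 stretch ends in another CACGTG, left in lower case.
PHO5: ccttggcactcaCACGTGggactagcacag
PHO11: tcttggcgttcaCACGTGggtttaaaaagg
PHO12: tcttggcgttcaCACGTGggtttaaaaagg
SPL2: aaatgatgtacgCACGTGggcgaaagttca
VTC4: attattcatccgCACGTGgctgcacacgtg
PHO91: ttttcggggatcCACGTGatggctttttga
These lie at II:431187-431216, minus strand (PHO5), I:225165-225194, plus strand (PHO11), VIII:551804-551833, plus strand (PHO12), VIII:375230-375259, minus strand (SPL2), X:413507-413536, minus strand (VTC4) and XIV:651896-651925, minus strand (PHO91). The PHO11 and PHO12 stretches are the same. SPL2 holds 3 such hexamers in its window and VTC4 holds 2. Over the whole list, 11 of 26 members have the hexamer. The PHO5 window from 300 to 101 bases before the start codon (II:431052-431251, minus strand) shows the site in its wider setting.
PHO5 upstream: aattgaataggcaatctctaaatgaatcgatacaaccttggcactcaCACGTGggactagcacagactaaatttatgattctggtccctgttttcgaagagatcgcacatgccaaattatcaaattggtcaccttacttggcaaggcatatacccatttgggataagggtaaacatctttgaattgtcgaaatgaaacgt

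Genes of branched-chain amino acid synthesis were also among those lower in myriocin. Leucine, isoleucine and valine are made by a shared mitochondrial pathway, from which leucine synthesis branches off, and Leu3 and Gcn4 are its known activators. Of 13 tested members 7 were lower and 0 were higher, with a median log2 difference of -0.71. The list also took in the alanine aminotransferase gene ALT1, which lies outside that pathway and is among the 7. LEU4, the synthase that commits carbon to leucine, had the smallest p of all genes. Its values were 97.1 to 156 (median 106) in myriocin and 108 to 397 (median 318) in cycloheximide. Cycloheximide replicate 1 was at 108 and the other 9 wells at 295 to 397, above every myriocin well. The log2 difference was -1.12 ± 0.13 (adjusted p = 7.61e-08), with -1.04 ± 0.11 for myriocin and 0.08 ± 0.11 for cycloheximide against no drug. LEU1, the next enzyme of the branch, was 98.8 to 198.4 in myriocin, 232 to 297 without drug and 184.9 to 593 in cycloheximide, a log2 difference of -1.34 ± 0.21 (adjusted p = 4.08e-05). Against no drug LEU1 gave -0.70 ± 0.17 in myriocin and 0.63 ± 0.17 in cycloheximide, so the drugs lay on opposite sides of the drug-free wells.

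BAT1, the mitochondrial branched-chain aminotransferase, had medians of 100.3 in myriocin and 402 in cycloheximide but a fitted log2 difference of only -0.84 ± 0.20 (adjusted p = 0.00761). Drug-free BAT1 values were 95.3 to 97.6 in label LM, which holds 7 of the myriocin wells, and 239 to 382 in the other labels. The fitted difference removes this gap as if all wells of a label shared it, which was not tested. The cytosolic aminotransferase gene BAT2 (-0.71), ILV3, a dehydratase of the common pathway (-0.77), the mitochondrial carrier gene OAC1 (-1.15) and the alanine aminotransferase gene ALT1 (-1.13) were lower too. The activator gene LEU3 itself was not called (0.08). The Leu3 motif CCGNNNNCGG, searched on both strands, is in 2 of the 7 called genes, LEU1 and BAT1, and in 1.57% of all windows. The Gcn4 motif TGACTC is in 3 of the 7, BAT1, ILV3 and LEU4, and in 7.77% of all windows. Over the whole list, 3 of 13 members have the Leu3 motif and 8 of 13 the Gcn4 motif, so uncalled members carry the latter too. TGACTC is also in 9 of 10 arginine and 5 of 6 histidine synthesis genes, of which 0 were called. The windows of LEU1 and BAT1 from 300 to 101 bases before the start codon are shown with Leu3 and Gcn4 letters in capitals.
LEU1: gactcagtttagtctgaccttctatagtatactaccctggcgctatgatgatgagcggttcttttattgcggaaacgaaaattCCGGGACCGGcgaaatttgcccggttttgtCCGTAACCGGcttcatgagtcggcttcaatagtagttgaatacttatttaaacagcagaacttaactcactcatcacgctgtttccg
BAT1: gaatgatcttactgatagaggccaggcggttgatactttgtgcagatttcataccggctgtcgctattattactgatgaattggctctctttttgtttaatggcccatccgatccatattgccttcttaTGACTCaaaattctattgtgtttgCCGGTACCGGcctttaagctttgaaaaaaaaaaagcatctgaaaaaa
They lie at VII:478753-478952, minus strand (LEU1) and VIII:517232-517431, plus strand (BAT1). LEU1 carries 2 Leu3 matches, and BAT1 carries a Gcn4 match upstream of 1 Leu3 match. LEU4 has 1 Gcn4 match in its window (XIV:426838-426867, minus strand).
LEU4: cttacgtgtaagTGACTCagttctttcaaa

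Genes of amino acid and peptide permeases were among those lower in myriocin as well. Of 21 tested members 9 were lower and 0 were higher (10 and 0 without cycloheximide replicate 1), no member had a positive difference, and the median was -0.64. AGP1, a permease of broad range, was 85.8 to 169 (median 118) in myriocin, 205 to 356 without drug and 150.2 to 517 (median 375) in cycloheximide. A single cycloheximide value, replicate 1 at 150.2, lay within the myriocin range. The log2 difference was -1.52 ± 0.20 (adjusted p = 1.05e-06). PTR2, the transporter of di- and tripeptides, was 10.6 to 40.7 in myriocin and 16.9 to 99 in cycloheximide, a log2 difference of -1.54 ± 0.41 (adjusted p = 0.0178), and its cycloheximide wells other than replicate 1 lay at 65 to 99. DIP5, the permease of acidic amino acids, had a log2 difference of -1.84 ± 0.39 (adjusted p = 0.00288) although its values, 9.81 to 22.8 and 13.6 to 44.7, overlapped. Drug-free DIP5 was 87.9 to 128 in label LM and 11.1 to 34.1 in the other labels. The branched-chain permease gene BAP2 (-1.13), the general permease gene GAP1 (-1.34), the oligopeptide transporter gene OPT1 (-1.08), the S-adenosylmethionine permease gene SAM3 (-0.88), the lysine permease gene LYP1 (-0.74) and the glutamine permease gene GNP1 (-0.73) were also lower. The tryptophan permease gene TAT2 was not called (-0.02), nor was TAT1 (-0.91). The list median was -0.39 for myriocin and 0.23 for cycloheximide against no drug.

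Of 26 genes under nitrogen catabolite repression, the system that keeps genes for poor nitrogen sources silent while rich ones last, 5 were lower and 0 higher in myriocin (median -0.39). GAT1, a GATA-type activator of these genes, was 14 to 31.4 in myriocin and 18.7 to 66.3 in cycloheximide, a log2 difference of -1.08 ± 0.23 (adjusted p = 0.00288). The glutamate dehydrogenase genes GDH1 (-0.76) and GDH2 (-1.01), GAP1 and the urea transporter gene DUR3 (-1.34) were the others. DUR3 lost its call in 29 of 53 refits that each left out 1 library. The ammonium permease genes MEP1, MEP2 and MEP3 were not called, with -0.39, -0.74 and -0.21. Within label CM this list had a median of 0.08, and GAT1 had the opposite sign there (0.72).

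Serine is a substrate of the enzyme that myriocin inhibits, and 5 of 15 tested genes of serine, glycine and one-carbon metabolism were lower in myriocin, with 0 higher and a median of -0.52. GCV2, a subunit of the glycine decarboxylase that breaks glycine down, was 25.6 to 61.4 (median 44.7) in myriocin, 89.8 to 175.6 without drug and 41 to 214 (median 181.4) in cycloheximide. Its log2 difference was -1.23 ± 0.30 (adjusted p = 0.0102), and in label CM the cycloheximide well (41) was lower than the myriocin well (57). GCV1 of the same complex (-0.93), the serine synthesis genes SER3 (-0.97) and SER1 (-0.61) and the folate enzyme gene MTD1 (-0.86) were lower. The serine hydroxymethyltransferase genes SHM1 (0.37) and SHM2 (-0.56) were not called and differed in sign. The count for this list was 8 without cycloheximide replicate 1, 2 without cycloheximide replicate 2 or drug-free replicate 10 or 11, and 3 without myriocin replicate 1 or drug-free replicate 3 or 4.

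**Figure D4:**
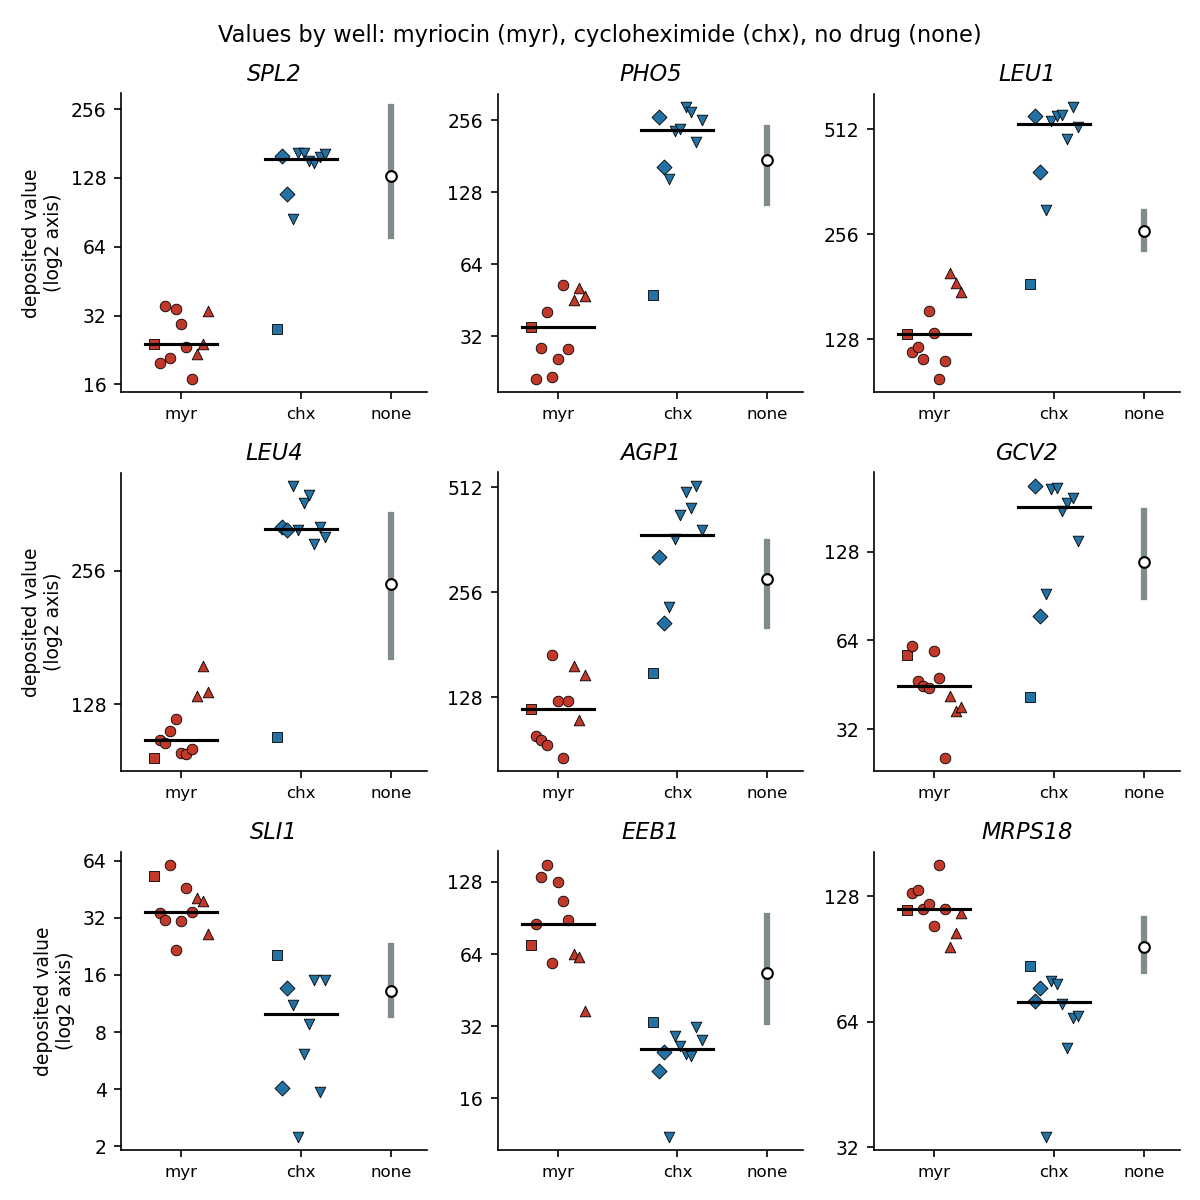
Deposited normalised value on a log2 axis of 9 genes in each myriocin and cycloheximide well. Squares are label CM, circles LM, triangles MR (up) and CR (down) and diamonds CL, black lines are medians, and the grey bar with its open point gives the range and median of 11 drug-free wells. SPL2, PHO5 and LEU4 show 9 cycloheximide wells above every myriocin well and the CM square near the myriocin values, while SLI1, EEB1 and MRPS18 show no overlap.

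Further genes lower in myriocin came from several pathways. SNZ1, a vitamin B6 synthesis gene, was 14 to 54.2 in myriocin, 16 to 37.5 without drug and 51.6 to 139 in cycloheximide, with a log2 difference of -1.68 ± 0.27 (adjusted p = 5.64e-05). Against no drug, where growth is not matched, it gave 0.00 ± 0.22 in myriocin and 1.68 ± 0.22 in cycloheximide. ISU2, an iron-sulfur cluster scaffold gene, had values without overlap, 4.87 to 20.8 in myriocin and 37 to 84.6 in cycloheximide, and a log2 difference of -1.63 ± 0.24 (adjusted p = 1.46e-05). IMD2, which encodes the first enzyme of guanine nucleotide synthesis from IMP, also had no overlap, 11.8 to 42.9 against 45.3 to 142, with -1.19 ± 0.24 (adjusted p = 0.00187). IMD2 and YAR075W (-1.5) belong to a family of close copies between which reads may be split. FCY2, the cytosine and purine permease gene (-1.09), and the purine synthesis genes ADE2 (-0.75) and ADE4 (-0.71) were lower, while the pyrimidine gene URA1 was higher (0.70), out of 31 genes of both pathways (median 0.09). URA1 lost its call with relative growth as a covariate and when lithium chloride replicate 1, 2 or 4, drug-free replicate 3, 10 or 11, cycloheximide replicate 3 or rapamycin replicate 10 was left out.

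The acyl-CoA synthetase genes FAA4 and FAA1, whose products activate long-chain fatty acids, were lower with log2 differences of -0.80 and -0.74. FAA4 was 15.5 to 45.9 in myriocin and 47.4 to 144 in cycloheximide, without overlap. They were the 2 called genes of 10 in fatty acid synthesis and activation, whose median was -0.08. HXT3, a glucose transporter gene, was 169 to 352 in myriocin and 258 to 620.4 in cycloheximide (log2 difference -0.83 ± 0.15, adjusted p = 0.000276), and the glucose-signalling gene STD1 was lower too (-1.11). TIP1, a cell wall mannoprotein gene, was 55.6 to 106 in myriocin and 232 to 311 in 9 cycloheximide wells, with replicate 1 at 55.5 and a log2 difference of -1.10 ± 0.18 (adjusted p = 5.64e-05). In the cell wall list 2 of 39 genes were lower, TIP1 and the glucan synthase gene FKS1 (-0.79), and 2 were higher, TIR1 (1.04) and PRY2 (0.90). Without cycloheximide replicate 1, where 350 of all 5015 genes were called, the counts were 2 lower and 6 higher.

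Of 36 chaperone and heat shock genes, 4 were lower in myriocin and 0 higher (median -0.32). They were BTN2 (-1.20) and CUR1 (-0.89), which sort misfolded proteins, APJ1 (-0.99) and the mitochondrial disaggregase gene HSP78 (-0.66). The count was 6 without cycloheximide replicate 1, 1 without cycloheximide replicate 2, and 2 without cycloheximide replicate 3, lithium chloride replicate 4 or drug-free replicate 4. The list median was 0.30 for cycloheximide and 0.02 for myriocin against no drug, and 0.23 within label CM. Of 18 trehalose and glycogen genes, 3 were lower (median -0.41): the trehalose synthase subunit gene TPS3 (-0.71), the glycogen synthase gene GSY1 (-0.63) and the trehalase gene NTH2 (-0.61). Without cycloheximide replicate 1, 6 were called. None of 41 general stress genes was called by limma (median -0.17), 1 without that replicate.

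The gene with the largest rise in myriocin was SLI1, which encodes an acetyltransferase known to confer resistance to myriocin. SLI1 was 21.7 to 60.6 (median 34.2) in myriocin, 9.87 to 22.6 without drug and 2.25 to 20.5 (median 9.97) in cycloheximide. Every myriocin well lay above every cycloheximide well and the log2 difference was 1.73 ± 0.33 (adjusted p = 0.000791). Against no drug, where growth is not matched, SLI1 gave 1.36 ± 0.26 for myriocin and -0.36 ± 0.26 for cycloheximide. The single pair of label CM gave 1.34. EEB1, which encodes an enzyme that makes ethyl esters of medium-chain fatty acids, was 36.9 to 151 in myriocin and 11.1 to 33.2 in cycloheximide, again without overlap. Its log2 difference was 1.44 ± 0.28 (adjusted p = 0.000892), with 0.49 ± 0.22 and -0.95 ± 0.22 against no drug, so that it was the cycloheximide wells that departed most from the drug-free level. YOL014W (1.52) and YOR385W (1.49), for which no role is given here, the autophagy gene ATG5 (1.26), the mitochondrial glyoxalase gene GLO4 (1.23) and the sulfate assimilation gene MET14 (1.20) were also among the 15 largest rises. MET14 lost its call in 16 and YOL014W in 2 of the 53 refits.

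Mitochondrial ribosomal protein genes, which encode the ribosome that translates the mitochondrial genome, were among those higher in myriocin. Of 77 tested members 13 were higher and 0 lower, and the median was 0.47. A positive difference was seen in 75, beside 2674 of all 5015 genes. MRPS18, of the small subunit, was 96.5 to 152 (median 119) in myriocin, 84.7 to 113 without drug and 33.9 to 86.9 (median 71.2) in cycloheximide. The groups did not overlap, and the log2 difference was 0.75 ± 0.16 (adjusted p = 0.00330). RSM19, also of the small subunit, showed 65.9 to 89.6 against 18.9 to 54.1, without overlap, and a log2 difference of 0.85 ± 0.20 (adjusted p = 0.00742). The large subunit genes MRPL16 (0.78) and MRPL9 (0.88) and MNP1 (0.73) were among the others. Against no drug, where growth is not matched, the list median was 0.16 in myriocin and -0.31 in cycloheximide. The pair of label CM gave a list median of 0.26.

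The number of mitochondrial ribosomal genes called depended on the wells used. It was 20 without cycloheximide replicate 1, 22 without the shallow libraries, and 7 with relative growth as a covariate. It was 4 without drug-free replicate 10, 7 without drug-free replicate 3, and 8 without drug-free replicate 4, cycloheximide replicate 2 or 7, myriocin replicate 6 or rapamycin replicate 10. Of 40 oxidative phosphorylation genes, 1 was higher, the ATP synthase gene ATP17 (0.65), and the median was 0.28. That call was lost without myriocin replicate 1, and 2 genes were higher and 1 lower without cycloheximide replicate 1.

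Few genes of cytosolic ribosome assembly were called. Of 59 genes of large subunit assembly 3 were higher in myriocin and 0 lower (median 0.33, 42 positive), and of 41 of the small subunit processome 2 were higher and 0 lower (median 0.32, 32 positive). RRS1, which acts in large subunit maturation, was 5.90 to 31 in myriocin and 2.25 to 20.5 in cycloheximide, a log2 difference of 1.48 ± 0.46 (adjusted p = 0.0449), and lost its call in 27 of 53 refits. CIC1 (1.30), SQT1 (1.05), UTP11 (1.51) and SNU13 (1.04) were the others, all with overlapping wells. The large subunit count ranged from 0 (without drug-free replicate 3, 10 or 11 or rapamycin replicate 10) to 11 (without cycloheximide replicate 1), and the small subunit count was 0 without drug-free replicate 3 or cycloheximide replicate 3. Both medians were positive against no drug in both drugs, 0.72 and 0.65 in myriocin and 0.32 and 0.34 in cycloheximide, but negative within label CM (-0.50 and -0.41). In the 21 wells alone, fitted with no label or set term, the medians were -0.01 and 0.03. Drug-free RRS1 was 4.15 to 4.19 in label LM, which holds 7 of the myriocin wells, and 6.90 to 24.4 in the other labels. Drug-free CIC1, SQT1 and SNU13 were also lowest in LM, while UTP11 in LM overlapped label LR. The main fit removes such gaps as if all wells of a label shared them, which was not tested. Besides its myriocin wells, label LM holds 2 drug-free wells, replicates 3 and 4, and lithium chloride wells. Without drug-free replicate 4 the large subunit count was 1. RRS1 in the 7 myriocin wells of LM was 5.90 to 31. The PAC motif GATGAG, a common element of assembly genes, is in 37 of 41 small subunit and 55 of 59 large subunit members, the called ones included, and in 19.1% of all windows. Of 137 cytosolic ribosomal protein genes 1 was called, RPL22B (0.90), and the median was 0.10. Without cycloheximide replicate 1, 3 were higher, and without the shallow libraries 0.

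Calcineurin genes and cell cycle genes gave smaller groups. Of 23 genes of calcineurin signalling and cation balance 3 were higher in myriocin and 0 lower: the calcineurin regulator RCN1 (1.04), the transcription factor CRZ1 (0.79) and the kinase CMK2 (0.61). All 3 had log2 differences from no drug below 0 in cycloheximide, -0.69 ± 0.22, -0.50 ± 0.17 and -0.67 ± 0.12, and smaller ones in myriocin, 0.35 ± 0.22, 0.30 ± 0.17 and -0.06 ± 0.11. Within label CM the sign was opposite for RCN1 (38.4 in myriocin and 49.5 in cycloheximide) and CRZ1 (31.4 and 41), but not for CMK2 (458 and 382). In the G1/S list 2 of 25 were higher, SVS1 (1.0) and TOS2 (0.93). In the G2/M list 2 of 19 were lower, DBF2 (-1.28), a kinase of mitotic exit, and the polo kinase gene CDC5 (-0.79). STE6, the exporter of a-factor, was lower (-0.82), the 1 call among 14 tested MATa and pheromone genes. Of the 14, 13 had negative differences (median -0.45), beside 2341 of all 5015 genes.

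The genes nearest to the drug targets were not called with all wells. LCB1 and LCB2 encode the catalytic subunits of serine palmitoyltransferase. LCB1 was 54.7 to 109 in myriocin and 54.1 to 84.7 in cycloheximide, a log2 difference of 0.36 ± 0.16 (adjusted p = 0.172), and LCB2 gave 0.19 ± 0.18 (adjusted p = 0.600). ORM2, a regulator of the enzyme, was 87.3 to 173 against 66.6 to 133 (0.50 ± 0.19, adjusted p = 0.109). Without cycloheximide replicate 1 ORM2 was called, with a log2 difference of 0.66 ± 0.19 (adjusted p = 0.0193). Of 29 genes of sphingolipid synthesis 0 were called by limma (median 0.07, range -0.39 to 0.39), also without cycloheximide replicate 1. Of 18 genes of sphingolipid signalling 0 were called (median -0.28), and 3 lower and 1 higher without that replicate. RPL28, which encodes the ribosomal protein at the cycloheximide site, had 0.03 ± 0.08 (adjusted p = 0.875). PDR5, the main drug efflux pump gene, was 111 to 204 in myriocin and 47.8 to 233 in cycloheximide (0.37 ± 0.20, adjusted p = 0.296), with the highest cycloheximide value in replicate 1. Of 21 efflux and multidrug genes 1 was lower, QDR2 (-0.79), and without cycloheximide replicate 1 another was higher.

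Whether the differences held at milder growth inhibition was read from 16 other wells with relative growth over 0.66 and up to 0.90, 5 with myriocin (0.271 to 0.396 µg/ml) and 11 with cycloheximide (0.0215 to 0.0522 µg/ml). These wells were chosen by growth, and their myriocin doses overlap those of the growth-matched wells (0.349 to 0.510 µg/ml). No library was shared with the comparison above. Here the myriocin wells carried labels LM and MR and the cycloheximide wells CR, so drug and label cannot be told apart. 792 of 5015 genes (15.8%) were called by limma with terms for growth-reference set and relative growth, 374 (7.46%) higher and 418 (8.33%) lower in myriocin. Of the 74 genes higher in the growth-matched wells, 64 had the same sign and 14 were called the same way, and of the 105 lower genes 97 had the same sign and 55 were called the same way. 1 gene, YDR119W-A, was called the opposite way (-1.0 and 0.60). The 69 genes called the same way are 38.5% of those called at matched growth and 8.71% of the 792. Over all 5015 genes the median difference in the milder wells was -0.03.

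Phosphate, branched-chain and permease genes were lower in myriocin at milder inhibition as well. PHO5 was 16.3 to 44.3 in myriocin and 216 to 280.1 in cycloheximide, a log2 difference of -3.13 ± 0.15 (adjusted p = 5.43e-13), and 16 of 26 phosphate genes were lower. LEU4 (-1.17 ± 0.08), LEU1 (-1.58 ± 0.11), PTR2 (-1.66 ± 0.15) and IMD2 (-2.39 ± 0.19) were lower again, with 11 of 13 branched-chain and 14 of 21 permease genes. DIP5 (-0.42 ± 0.21, adjusted p = 0.112) and GAP1 (-0.30 ± 0.24, adjusted p = 0.350) were not called. EEB1 (1.31 ± 0.13), SLI1 (0.78 ± 0.24) and 25 of 77 mitochondrial ribosomal genes were higher. The calcineurin genes were not called, with -0.04 ± 0.23 for RCN1 and -0.15 ± 0.16 for CRZ1, and the list had 0 calls of 23.

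**Figure D5:**
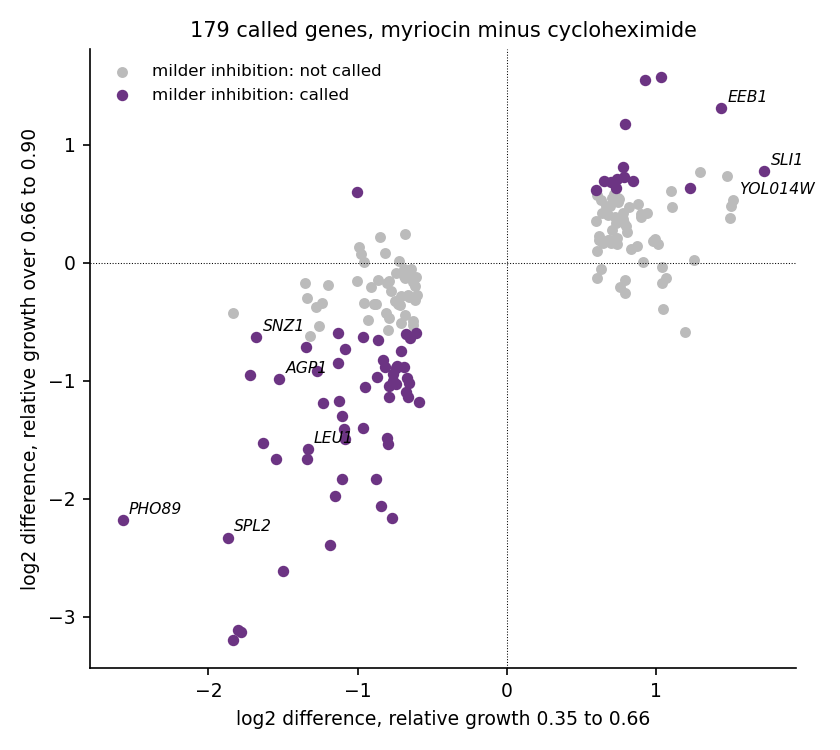
Log2 difference, myriocin minus cycloheximide, of the called genes in the growth-matched wells (horizontal) and in 16 wells of milder inhibition (vertical), which share no library. Purple points were also called in the milder wells, and 64 of the 74 genes to the right and 97 of the 105 to the left have the same sign on both axes.

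Within the 21 growth-matched wells the difference did not depend detectably on growth. The slope of the log2 value on relative growth was compared between the drugs for each gene by limma, and 0 of 5015 genes were called, with a smallest adjusted p of 0.931 and 65 genes at an unadjusted p under 0.05. The narrow range of growth limits what such slopes can show.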

How the data were processed

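Messenger RNA was measured in wells of yeast strain BY4741. Per the labels' protocols, fragments of polyadenylated RNA were copied from poly(T) primers that carry barcodes and unique molecular identifiers, and sequenced as single-end reads. TopHat, UMI-tools, featureCounts and build R64 are listed in the submitters' processing notes. Versions, strand setting and the handling of multiply matching reads were not stated in those notes or in the labels, so close copies and antisense or overlapping genes may not be told apart. The table the authors deposited holds a normalised signal per gene, not counts. Every library has the same largest value (17026.2) and a total of 595181 to 596851, and 77.2% of values times 239 were within 0.01 of a whole number and 22.8% within 0.01 of a midpoint, the pattern of quantile normalisation. The normalisation is inferred from the table itself, as no label or header names it. Changes are therefore relative to the other genes of a library, and values are not divided by gene length. Depth was estimated from ties, as the worth of 1 read in genes with 30 reads. It was 64843 to 2017612 reads over 238 libraries (median 568842), and 8 libraries below a share of 0.25 of the median are called shallow. Depth and the spread between wells set the precision.

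Values were tested as log2(value + 1), which understates the change of low genes, for 5015 of 6717 features with a mean of at least 10 over all libraries. RefSeq R64 names matched 6026 features and left 691 unmatched. limma 3.58.1 (mean-variance trend, R 4.3.3) was fitted to 53 wells: 11 without drug and 42 single-drug wells of the 4 drugs at relative growth 0.35 to 0.66. Terms were drug group, drug combination label and growth-reference set, the lower or higher ratio of absolute to relative growth within a label, a ratio the labels do not explain. Called genes had a p under 0.05 after Benjamini-Hochberg adjustment over all tested genes and a difference of at least 1.5-fold. The edgeR test planned for counts was not used, since no counts are held. The 16 milder wells and the slopes on growth were fitted separately. On simulated data with this design, 77% of genes changed by a log2 of 1 and 93% of those changed by 1.5 were called, with 5 of 4815 unchanged genes. The simulation drew independent normal values around the fit, with the same spread in every well. It holds no well that stands apart, no shallow library and no label gap other than the fitted one, so these shares may not hold for the real wells.

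Genes were named as the 15 largest rises and falls among those called, up to 4 called members with the smallest p in each gene list, and genes of drug targets and transport. Other called or uncalled members of these lists were named after their values were seen. The wells, gene lists and tests were chosen with earlier results of these data known. Replicate numbers follow accession order and pair no wells. Windows before start codons came from the RefSeq R64 genome, and those printed stop 101 bases before the start codon or, for single sites, are 30 bases long. Alternatives covered the pseudocount, filters, scaling, model terms, growth window, weights, shallow libraries and each library left out.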

Additional observations from a re-analysis of the deposited data

Results flagged for a closer look

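Among the 98 named genes, 26 had a cycloheximide well set off from the other 9. The gap, measured in log2(value + 1), was more than 0.466 of the group's range (Dixon's 95% limit for 10 wells), where chance gives about 1 in 20. The 11 myriocin wells are more than that comparison covers and were not examined this way. In 16 of the 26 genes the well was replicate 1 of label CM, each time the lowest. In the following the deposited value of that well, not its log2, stands first and that of the nearest other well second. Among phosphate, transport and amino acid genes these were SPL2 (28, next 84.7), PHO12 (41, next 139), PHO11 (35, next 119), PHO5 (47.4, next 145), PTR2 (16.9, next 65), SAM3 (22.4, next 62.7), LEU4 (108, next 295), ARO1 (82.4, next 124) and BAP2 (57.4, next 108). The other genes low in replicate 1 were YAR075W (9.39, next 26.4), HSP78 (206, next 285), GAT1 (18.7, next 47.9), PYC2 (152, next 229.6), HXT3 (258, next 479), TIP1 (55.5, next 232) and QDR2 (64.4, next 119). Without this well 350 genes were called, and its own depth was 311751 reads.

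Replicate 4 of label CR, the shallowest cycloheximide library (87091 reads), was the lowest well for EEB1 (11.1, next 20.9), YLR194C (33.9, next 72.9), SVS1 (11.1, next 20.9), MRPS18 (33.9, next 55.5), MNP1 (26.3, next 53.8) and SNQ2 (11.1, next 26.5). It was the highest for MSN4 (84.7, next 26.9) and FKS1 (216, next 124). Replicate 3 of label CL (104188 reads) was the lowest for GLO4 (1.18, next 6.03) and CRZ1 (25, next 41). The part of depth in these values was not tested gene by gene, and with all shallow libraries left out 276 genes were called.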

How the results depend on the processing

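The main count of called genes (74 higher, 105 lower) stayed within 1.5 times under 10 of 19 alternatives, from 147 (pseudocount 10) to 255 (wells of other growth added as groups). It was 523 with the 21 wells alone and no label or set term, 509 with the set term alone, 482 with array weights, 302 without both CM wells and 276 without shallow libraries. It was 115 with drug-free wells under an OD600 of 0.9 alone and 102 at relative growth 0.45 to 0.60. Among wells of the lower growth-reference set it was 18 and of the higher 13, both chosen after seeing the data. The last 4 settings use fewer wells (50, 42, 31 and 22). Fewer wells were also used in settings with larger counts, those with 21 wells, without CM wells (51) and without shallow libraries (48). The cause of these shifts was not tested. Rescaling by the median log ratio gave 67 higher and 115 lower genes in place of 74 and 105. Leaving out 1 library gave 122 to 350, and the change passed 1.5 times for cycloheximide replicate 1 alone. Of 84 named genes that were called, 50 kept the call in all 53 such refits, and over all alternatives named genes lost a call 475 times, gained one 4 times and never changed the sign of a call. The milder count of 792 was 431 with pseudocount 10, 877 without a filter, 743 without the growth term and 616 to 1002 with 1 library left out. The count of slopes that differed was 0 throughout. No paired analysis was possible because the labels carry no replicate numbers shared between the drugs. Without counts, no counting interval can be given, and genes with values near 10 rest on few reads in the shallow wells.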

Other observations

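Some groups that gave few or no calls at matched growth differed between the drugs in the milder wells, where drug and label cannot be told apart. Of 41 general stress genes 17 were higher in myriocin there (median 0.54), and of 40 oxidative phosphorylation genes 20 were higher (median 0.59). Of 33 sulfur and methionine genes 18 were lower and 1 was higher (median -0.63), and of 54 translation factor and tRNA synthetase genes 13 were lower (median -0.41). In the growth-matched wells the medians of these lists were -0.17, 0.28, -0.07 and -0.04. Those medians came from the fit with a label term, which the milder fit lacks, so the 2 sets of medians are not alike. In the 21 growth-matched wells with no label or set term they were 0.21, 0.40, -0.35 and -0.27. There 8 of the 40 oxidative phosphorylation genes were higher. The share of genes called in the milder wells was 15.8%, so these counts are read against 7.46% higher and 8.33% lower.

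At matched growth, none of 26 ergosterol, 20 inositol and phospholipid, 34 proteasome, 24 glycolysis and 10 arginine genes was called by limma, with list medians of 0.15, 0.06, -0.01, -0.06 and -0.06. Over all genes, 993 had an unadjusted p under 0.05. Without cycloheximide replicate 1, 3 ergosterol genes were called higher and 1 lower, and 1 inositol and phospholipid gene was called higher. Other lists changed too. Lower were then 7 nitrogen catabolite repression, 5 pyrimidine and purine, 3 sulfur and methionine and 2 MATa and pheromone genes. Higher were 4 calcineurin and cation and 3 small subunit processome genes.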
